A study of Mus musculus with 48 samples.

Results

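Corticotropin-releasing hormone (CRH) neurons were taken as the cells with at least 1 UMI of *Crh* and with at least 3 of the 6 neuronal genes *Stmn2*, *Tubb3*, *Snap25*, *Syt1*, *Elavl4* and *Rbfox3* detected. A UMI is a tag that marks 1 caught RNA molecule, so that amplified copies are counted as 1. The rule gave 121 Crh+ neurons among 14121 cells of the embryonic hypothalamus, 90 in control and 31 in Eed-cKO. The neuronal genes alone selected 5898 control and 5224 Eed-cKO cells, which left 5808 and 5193 other neurons without a *Crh* UMI. The members were selected on their own *Crh* and neuronal gene counts, so those values in these cells are a description.

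All embryos were taken at E18.5 and carried the floxed *Eed* allele on both chromosomes (Eed fl/fl). The 9 Eed-cKO embryos also carried Sox1-Cre/+, a Cre expressed throughout the early neural tube and not particular to CRH neurons, while the 6 control embryos had no Cre. The stocks were kept on a mixed *B6:129S1* background. Control comprised 2 female and 4 male embryos and Eed-cKO 5 female and 4 male embryos. Each embryo gave 1 to 4 libraries, 22 in control and 26 in Eed-cKO, which were summed per embryo so that the embryo was the replicate. Judged by the sample names, control came from 4 litters and Eed-cKO from 6, with no litter holding both genotypes, so litter and genotype cannot be told apart.

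In the adult, CRH is best known from neurosecretory neurons of the paraventricular nucleus, whose peptide reaches the pituitary and releases adrenocorticotropic hormone, which in turn drives glucocorticoid output from the adrenal gland. Glucocorticoids act back on these neurons through the receptor encoded by *Nr3c1*, and vasopressin (*Avp*), made by some of the same cells, strengthens the pituitary response. The lineage depends on transcription factors such as *Sim1*, *Arnt2* and *Pou3f2*, and *Crh* is also made by other neuron types of the forebrain. *Eed* encodes a core subunit of the polycomb repressor complex 2 (PRC2), which keeps developmental genes silent by placing the H3K27me3 mark.

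The mouse *Crh* gene lies on chromosome 3 at 19693401-19695396 on the minus strand of GRCm38 (mm10) in the GENCODE vM21 annotation. *Avp* and *Oxt* are neighbours on chromosome 2, at 130580620-130582554 on the minus strand and at 130576173-130577054 on the plus strand. *Eed*, the targeted gene, lies on chromosome 7 at 89954654-89980983. Over all neurons, *Eed* was at 27.5 to 33.0 CPM in the control embryos (median 32.0) and at 17.7 to 27.6 in Eed-cKO (median 22.1), where CPM scales a gene's UMIs to the TMM-adjusted total of an embryo's neurons. The embryos of the genotypes overlapped narrowly, and the level fell by 0.44 on the log2 scale (SE 0.10, adjusted p = 0.00447, edgeR quasi-likelihood test). The libraries read the 3′ end of transcripts, and whether those reads lie in the deleted part of *Eed* was not examined here.

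Control libraries held 1112165 to 4513505 UMIs in 189 to 1207 cells, and Eed-cKO libraries 576432 to 2410229 UMIs in 163 to 465 cells. A Crh+ neuron was found in all 22 control libraries and in 17 of 26 Eed-cKO libraries. The Crh+ neurons were read more deeply than the other neurons, with a median of 8196.5 against 5183 UMIs per cell in control and of 9372 against 4833 in Eed-cKO. Of the cells, 101 barcodes occurred in more than 1 library, 8 of them within 1 embryo, and they touched 1 Crh+ neuron. Among the Crh+ neurons, 11 in control (12.2%) and 5 in Eed-cKO (16.1%) were among the 6% of cells with the highest doublet scores of Scrublet, compared with 6.99% and 7.09% of the other neurons.

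Most of the Crh+ neurons held very little *Crh* RNA. In control, 37 of the 90 cells had exactly 1 *Crh* UMI, 17 had 2, 24 had 3 to 9 and 12 had 10 or more, and those 12 cells held 65.7% of the 533 UMIs. In Eed-cKO, 13 of the 31 cells had 1 UMI, 9 had 2, 6 had 3 to 9 and 3 had 10 or more. Those 3 held 45.3% of the 106 UMIs. The Eed-cKO cells with 15 UMIs, from embryos 6 and 9, were among the top Scrublet scores, and the cell with 18 was not. Of the 12 control cells, only the one with 10 UMIs was. The median was 2 UMIs in both genotypes, while the highest cell had 127 in control and 18 in Eed-cKO. Just inside the rule, 8 control and 6 Eed-cKO cells were admitted on exactly 3 neuronal genes. Just outside, 6 control cells with up to 41 *Crh* UMIs and 1 Eed-cKO cell with 1 UMI were left out for having fewer.

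Free RNA in the droplets sets a floor for cells called on 1 UMI. Among endothelial, pericyte, leptomeningeal and microglial cells, which do not make CRH, 1 of 267 control cells had a *Crh* UMI (0.375%, Wilson 95% interval 0.0661 to 2.09) at a median of 3664 UMIs. In Eed-cKO it was 0 of 421 cells, which allows a share of up to 0.713%, at a median of 3583 UMIs. These intervals and limits cover counting error only. The mean shares of neurons with a *Crh* UMI given below lay within this control interval and under this Eed-cKO limit, so that a cell with 1 UMI cannot be told from a cell with free RNA by these counts alone. Pooled over the control embryos, 4.61, 8.78 and 1.46% of neurons were Crh+ in the *Ebf3*-, *Barhl1*- and *Dlx1*-led clusters described below. Those clusters are described because they held the most control Crh+ neurons, and the part of free RNA in these shares was not tested.

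The share of neurons that were Crh+ was lower in Eed-cKO than in control. By embryo, the 6 control embryos held 11, 12, 15, 12, 13 and 27 Crh+ neurons, or 1.21, 1.2, 1.61, 1.52, 0.948 and 3.02% of their neurons. Across the 9 Eed-cKO embryos the number ranged from 0 to 7 with a median of 4, and the share from 0 to 1.04% with a median of 0.569%. Eed-cKO embryos 2 and 3 had no Crh+ neuron, and control embryo 6 stood above all others.

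The mean share was 1.58% ± 0.743 in control (SD, n = 6) and 0.555% ± 0.390 in Eed-cKO (SD, n = 9). This was 1.03 points, or 2.85-fold, lower, and the difference was larger than the spread between embryos (exact two-sided permutation test, p = 0.000799). The lowest control embryo, at 0.948%, lay below the highest Eed-cKO embryo, at 1.04%, so the groups overlapped at that edge. The difference was -0.587 points with cells thinned to 2000 UMIs and shallower cells left out (exact permutation p = 0.0004). It was -0.616 points when 2 *Crh* UMIs were required (exact permutation p = 0.00919). Without control embryo 6, which held the most Crh+ neurons, it was -0.742 points (exact permutation p = 0.002). With litters in place of embryos it was -1.16 points (exact permutation p = 0.00952).

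**Figure D1:**
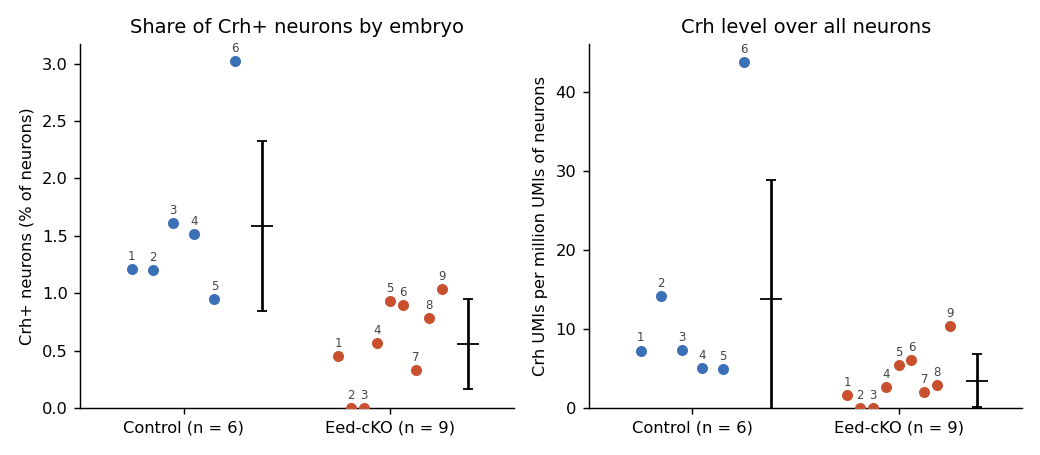
Left, share of neurons with at least 1 *Crh* UMI (%) for each embryo, numbered, by genotype. Right, *Crh* CPM over all neurons without TMM scaling for the same embryos. Horizontal marks are means and vertical bars the SD (n = 6 control, n = 9 Eed-cKO), drawn down to 0 where they would pass below it. Control embryo 6 is the highest in both panels, at 3.02% and 43.8 CPM, and Eed-cKO embryos 2 and 3 are at 0 in both.

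The *Crh* level over all neurons followed the same order. Without TMM scaling, *Crh* was at 7.26, 14.2, 7.38, 5.09, 4.94 and 43.8 CPM in the control embryos, and at 0 to 10.3 with a median of 2.64 in Eed-cKO, with 2 embryos at 0. Control embryo 6 alone held 304 of the 533 control UMIs. In the edgeR fit over all 15579 genes tested in the neurons, *Crh* fell by 2.01 on the log2 scale (SE 0.51, adjusted p = 0.00922, edgeR quasi-likelihood test). This call rested on control embryo 6, since without it the change was -1.16 and the adjusted p 0.0717 in edgeR. In summed counts, fewer Crh+ neurons and less *Crh* per neuron cannot be told apart. The median of 2 UMIs per Crh+ neuron does not decide this, since the cells were chosen for at least 1 UMI. Cells with 10 or more made up 13.3% of Crh+ neurons in control and 9.68% in Eed-cKO, and the highest cell had 127 and 18.

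The other genes of CRH signalling did not pass the threshold over all neurons. The receptor *Crhr1* was at 11.2 ± 1.46 CPM in control and 13.5 ± 3.99 in Eed-cKO, a log2 difference of 0.28 (SE 0.17, adjusted p = 0.293, edgeR). *Crhbp*, whose product binds and inactivates CRH, was at 13.3 ± 4.64 and 9.57 ± 6.17 CPM, a difference of -0.56 (SE 0.30, adjusted p = 0.222, edgeR). None of the 5 measured members of the CRH system list (*Crhr1*, *Crhr2*, *Crhbp*, *Ucn2*, *Ucn3*) passed the threshold, while 2397 of the 15579 genes (15.4%) did so across the neurons, 8.07% of genes being higher and 7.32% lower in Eed-cKO. *Avp* and *Oxt*, the other peptides of the paraventricular and supraoptic neurons, fell by 1.84 (SE 0.49, adjusted p = 0.0132, edgeR) and by 3.08 (SE 0.59, adjusted p = 0.000907, edgeR).

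The transcription factors of paraventricular neuroendocrine neurons were mostly not past the threshold over all neurons. *Sim1* was at -0.03 on the log2 scale against control (SE 0.15, adjusted p = 0.927, edgeR) and *Pou3f2* at -0.12 (SE 0.11, adjusted p = 0.525, edgeR). Of the 8 measured factors on this list, *Arnt2*, the partner of the *Sim1* product, fell by 0.31 (SE 0.07, adjusted p = 0.00326, edgeR) and *Tbx3* rose by 1.23 (SE 0.22, adjusted p = 0.000465, edgeR). *Nr3c1* was at 0.06 (SE 0.15, adjusted p = 0.84, edgeR).

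Clusters of all cells were made without *Crh*, to see where Crh+ neurons lay. In control, 37 of the 90 (41.1%) were in a cluster led by *Ebf3*, *Bdnf*, *Nrn1* and *Gal*, and these held 401 of the 533 *Crh* UMIs. Another 18, with 64 UMIs, were in a cluster led by *Barhl1*, *C1ql3* and *Foxa1*. A cluster led by *Dlx1*, *Ecel1* and *Dlx2* held 11, with 17 UMIs, and the remaining cells were spread over other clusters with 1 to 5 each. In Eed-cKO, 13 of the 31 were in the *Ebf3*-led cluster, with 64 of the 106 UMIs. The *Barhl1*-led cluster held 6 with 12 UMIs, and the *Dlx1*-led cluster 1. Another 4 were in a cluster led by *Alas2*, *S100a6* and *Crym*, which had 233 Eed-cKO and 4 control neurons. A cluster led by *Cited1* and *Tbx3* held 3. A cell with 15 *Crh* UMIs lay in a cluster led by *Ednrb* and *Fabp7*, and the rest were in other clusters with 1 each.

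Within the *Ebf3*-led cluster, the share of neurons that were Crh+ did not differ between the genotypes beyond the spread. In the control embryos it was 2.17, 5.52, 7.09, 1.09, 1.49 and 9.66%, and in Eed-cKO it ranged from 0 to 22.2% with a median of 5.26%. The means were 4.50% ± 3.48 and 6.44% ± 7.29, a difference of 1.93 points (exact permutation p = 0.617). The Eed-cKO embryos had few neurons in this cluster, 274 in all compared with 802 in control, and the highest share came from 2 of 9 neurons.

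Within the *Barhl1*-led cluster the order was as over all neurons. Shares were 13.6, 2.27, 10.3, 11.1, 5.66 and 17.2% in control, and 7 of the 9 Eed-cKO embryos were at 0, with 2, 33, 14, 16, 23, 17 and 9 neurons in the cluster (18 to 53 in control). At such numbers a share of 0 says little for a single embryo. The means were 10.0% ± 5.39 and 1.28% ± 2.89, a difference of -8.75 points (exact permutation p = 0.0048). The genotype effect differed between the clusters by 10.7 points (exact permutation p = 0.0168). The 2 clusters were chosen, after their counts were seen, as those with the most Crh+ neurons in control. That choice favours a high control share, so the p values of these shares and of their contrast are a description only. Eed-cKO neurons of the same kind may lie in other clusters, so these shares have other denominators than the share of all neurons.

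**Figure D2:**
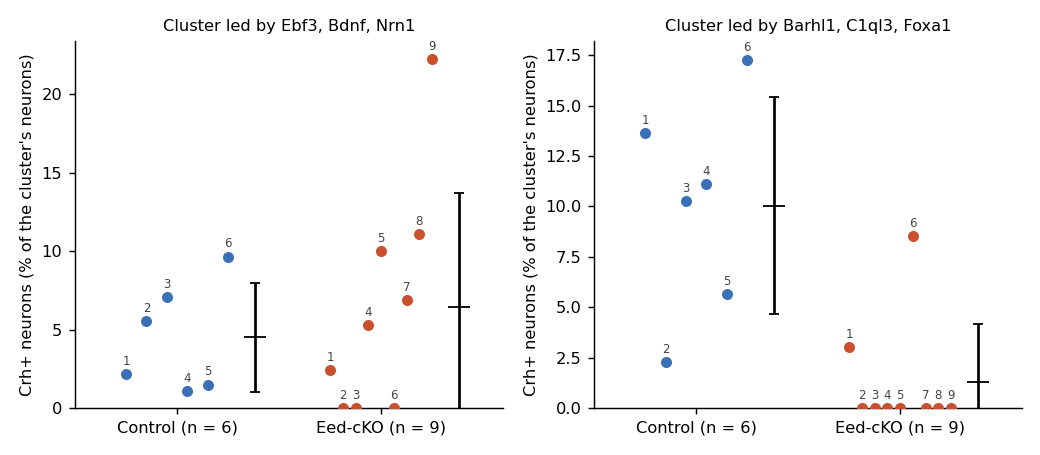
Share of Crh+ neurons (%) among the neurons of the cluster led by *Ebf3*, *Bdnf* and *Nrn1* (left) and of the cluster led by *Barhl1*, *C1ql3* and *Foxa1* (right), for each numbered embryo by genotype, with mean and SD beside the points (bars drawn down to 0 at most). In the left panel the genotypes overlap widely, while in the right panel 7 of 9 Eed-cKO embryos are at 0 and the control embryos range from 2.27 to 17.2%.

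Most Crh+ neurons carried the glutamatergic marker *Slc17a6*, the vesicular glutamate transporter, rather than *Slc32a1*, the vesicular GABA transporter. In control, 60 of the 90 cells had UMIs of *Slc17a6* only, 14 of *Slc32a1* only, 6 of both and 10 of neither. In Eed-cKO the numbers were 22, 2, 6 and 1 of 31. The cells with more *Crh* were more uniform, since *Slc17a6* alone was found in 31 of the 36 control and 8 of the 9 Eed-cKO members with 3 or more *Crh* UMIs, compared with 29 of 54 and 14 of 22 cells with 1 or 2 UMIs. No test was made of this split, which uses the gene of the rule.

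Against the other neurons of the same control embryos, this preference was not beyond the spread. Cells were thinned to 2000 UMIs for this, and shallower cells were left out. The *Slc17a6*-only share was then 81.8, 50, 40, 18.2, 45.5 and 40.7% of Crh+ neurons in control embryos 1 to 6. Among the other neurons it was 30.2 to 37.4% (median 33.4%). Crh+ neurons had the higher share in 5 of 6 embryos, with means of 46.0% ± 20.7 and 33.7% ± 2.32 (exact sign-flip test over embryos, p = 0.156, adjusted p = 0.438). The *Slc32a1*-only share was 12.5% ± 9.63 against 16.5% ± 1.87 (exact sign-flip adjusted p = 0.542). Without thinning, the *Slc17a6*-only means were 65.6% and 43.6% (exact sign-flip adjusted p = 0.188). The smallest p that 6 embryos allow is 0.03125, and no Eed-cKO embryo had the 10 Crh+ neurons needed for a test between genotypes.

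The levels of the transporters did not pass the threshold. *Slc17a6* was at 441 ± 152 CPM in control Crh+ neurons and 377 ± 38 in the other neurons (log2 difference 0.29, SE 0.13, adjusted p = 0.495, edgeR), and *Slc32a1* at 82.4 ± 77.2 and 112 ± 19.8 CPM (-0.33, SE 0.27, adjusted p = 0.852, edgeR).

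**Figure D3:**
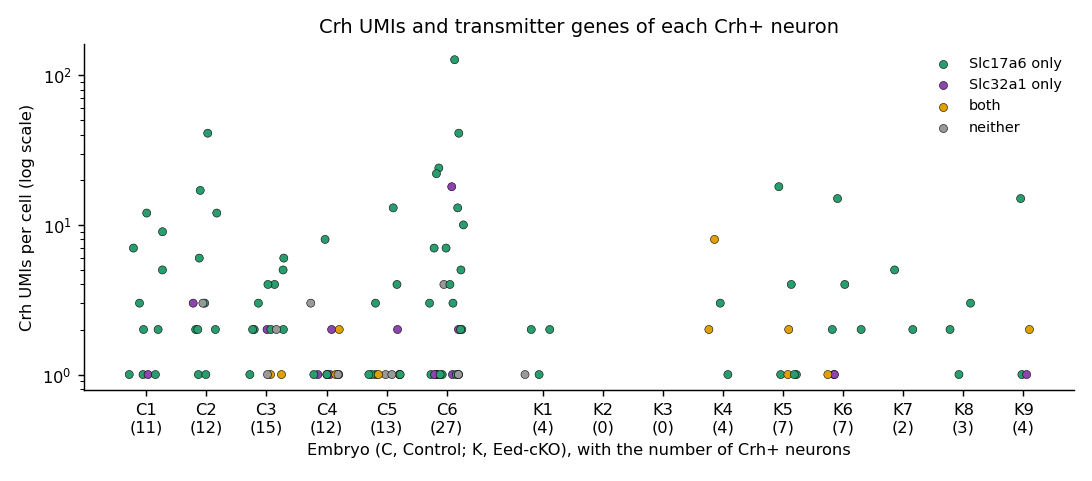
*Crh* UMIs of each Crh+ neuron (log scale) by embryo, coloured by the transmitter genes detected in the unthinned cell, with the number of Crh+ neurons of each embryo below the axis (C, control; K, Eed-cKO). Points are spread sideways for legibility. The cells with the most *Crh*, up to 127 UMIs in control embryo 6, are nearly all *Slc17a6*-only, and the *Slc32a1*-only and unassigned cells lie mainly at 1 to 3 UMIs.

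Comparing Crh+ with other neurons of the same 6 control embryos asked which genes differed between them. The other neurons are a mixture, here and in Eed-cKO below, and Crh+ neurons were not compared with like neurons. The *Ebf3*-led and *Barhl1*-led clusters held 41.1 and 20% of control Crh+ neurons but 13.6 and 3.48% of all control neurons. Of 9116 genes tested with the embryo as a block, 101 passed an adjusted p of 0.05 (1.11%), 41 higher (0.45%) and 60 lower (0.658%) in Crh+ neurons. The forkhead factor *Foxp2*, the BarH-like homeobox factors *Barhl1* and *Barhl2* and the secreted guidance protein gene *Reln* were among those that rose in every embryo. The peptide genes *Sst*, *Npy*, *Pmch*, *Agrp* and *Hcrt* were nearly or wholly absent. *Crh* and the 6 neuronal genes of the rule were left out of the test. Without control embryo 6, 41 genes were called, and without control embryo 3, 66.

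*Foxp2*, on chromosome 6 at 14901349-15441977, showed the clearest rise. Its level was 715, 368, 522, 228, 342 and 433 CPM in the Crh+ neurons of control embryos 1 to 6, and 98.8 to 224 CPM (median 143) in the other neurons. Every embryo was higher in Crh+ neurons and the ranges did not overlap. The rise was 1.56 on the log2 scale (SE 0.14, adjusted p = 9.69e-10, edgeR quasi-likelihood test) and kept its call in all 16 alternatives tried. A *Foxp2* UMI was found in 42 of the 90 cells.

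The *Barhl* genes, which mark glutamatergic territories of the caudal hypothalamus, were also higher. *Barhl1* led a cluster in which 18 of 205 control neurons were Crh+, so it was not particular to Crh+ neurons. *Barhl2* was at 118, 93.9, 134, 76.1, 74.3 and 66.6 CPM in Crh+ neurons and 26.6 to 31.7 in the other neurons, a rise of 1.73 (SE 0.25, adjusted p = 2.2e-05, edgeR). *Barhl1* was at 49.0, 54.8, 87.0, 54.3, 134 and 30.5 CPM against 11.5 to 25.5, a rise of 1.74 (SE 0.33, adjusted p = 0.00128, edgeR). For both genes every Crh+ value lay above every value of the other neurons. The *Barhl1* call was lost when 2 *Crh* UMIs were required (1.39, adjusted p = 0.169, edgeR) and among cells of at least 5000 UMIs (1.24, adjusted p = 0.155, edgeR).

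A *Barhl1* or *Barhl2* UMI was found in 23 of the 90 control Crh+ neurons and a *Sim1* UMI in 26, but both together in only 1. *Sim1*, the factor of the paraventricular lineage, was at 118, 117, 79.1, 54.3, 44.6 and 97.1 CPM in Crh+ neurons of control embryos 1 to 6 and at 31.9 to 62.3 CPM in the other neurons. It was higher in 6 of 6 embryos (0.91, SE 0.22, adjusted p = 0.026, edgeR), although the ranges overlapped, and 8 of 16 alternatives lost the call. None of the other 5 tested factors of the paraventricular list passed the threshold.

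Among other genes that were higher in all 6 embryos, *Dgkk*, a diacylglycerol kinase gene on the X chromosome, rose by 2.00 (SE 0.22, adjusted p = 1.31e-07, edgeR), from 45.7 ± 9.08 to 187 ± 124 CPM. *Reln* rose by 1.44 (SE 0.15), from 93.8 ± 24.2 to 243 ± 62.0 CPM. *Syt4*, a synaptotagmin of dense-core vesicles, rose by 1.08 (SE 0.11), *Robo2*, an axon guidance receptor, by 1.05 (SE 0.17) and *Acta1*, a muscle actin, by 1.27 (SE 0.31), with edgeR adjusted p values of 3.94e-08 for *Reln*, 5.77e-09 for *Syt4*, 0.000243 for *Robo2* and 0.0257 for *Acta1*. Genes that moved the same way in all 6 embryos made up 6.31% of those tested. *Acta1* lost its call in 8 of 16 alternatives, while *Dgkk*, *Reln*, *Syt4* and *Robo2* kept theirs in all 16.

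**Figure D4:**
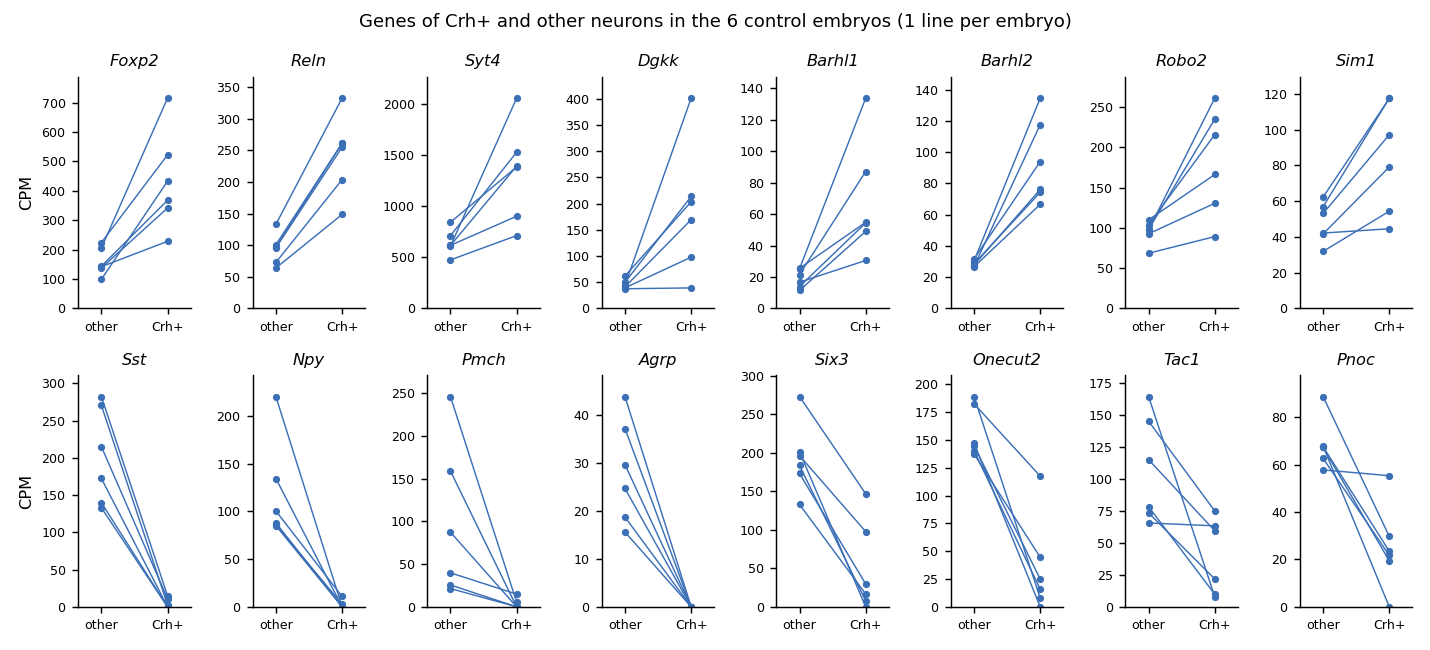
CPM in other neurons and in Crh+ neurons of each of the 6 control embryos, with 1 line per embryo and a linear axis from 0 for each gene. Upper row, 8 genes that rose in every embryo, with *Foxp2* the clearest. Lower row, 8 genes that fell in every embryo, of which *Agrp* had no UMI in any Crh+ neuron.

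The glucocorticoid receptor gene *Nr3c1*, which carries the steroid feedback on CRH neurons, was the only member of the steroid and cAMP list that passed among 11 tested. It was at 9.80, 110, 94.9, 10.9, 74.3 and 63.8 CPM in Crh+ neurons and 13.9 to 28.2 in the other neurons, a rise of 1.6 (SE 0.35, adjusted p = 0.00643, edgeR). Control embryos 1 and 4, with 1 UMI each, went the other way. The call was lost without control embryo 2 (1.38, adjusted p = 0.0984), 3 (1.53, adjusted p = 0.0706) or 6 (1.54, adjusted p = 0.144), all in edgeR.

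*Agtr1a*, *Rasd1* and *Arhgap36* were chosen after their values were seen. The first, the angiotensin II type 1a receptor gene, had 18 UMIs in 8 of the 90 Crh+ neurons and was at 22 ± 20.8 against 1.89 ± 0.840 CPM (3.55, SE 0.74, adjusted p = 0.00416, edgeR). *Rasd1*, a glucocorticoid-inducible Ras-like gene, was at 29.3 ± 23.9 against 3.17 ± 1.17 CPM (3.18, SE 0.59, adjusted p = 0.00108, edgeR). *Arhgap36* was at 65.7 ± 71.6 against 22.6 ± 2.93 CPM (1.66, SE 0.38, adjusted p = 0.0126, edgeR), with 69 of its 89 UMIs from control embryo 6. Without that embryo *Arhgap36* was at 0.81 (adjusted p = 0.823, edgeR), and it also lost its call without embryo 3 or 5. *Agtr1a* was without a UMI in 2 embryos and *Rasd1* in 1. Both kept their calls in the alternatives that tested them, 11 for *Agtr1a* and 15 for *Rasd1*, compared with 16 for *Arhgap36*. With 1 embryo left out, *Agtr1a* was tested in 2 fits and *Rasd1* in 5. In the other fits they fell below the gene filter, so the kept calls say little about how firm they are.

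The CRH receptor and binding protein genes were too low in the Crh+ neurons for a test. *Crhr1* had 6 UMIs and *Crhbp* 3 in the 90 control cells, and *Crhr1* was found in 5.56% of Crh+ and 5.44% of other neurons.

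Of 20 neuropeptide genes tested, 3 were higher and 9 lower in control Crh+ neurons, with a median of -1.30 compared with -0.02 over all genes. *Sst* had 3 UMIs in all Crh+ neurons and *Npy* 2, and they fell by 5.90 (SE 0.39, adjusted p = 1.73e-13, edgeR) and by 5.43 (SE 0.48, adjusted p = 8.04e-10, edgeR). *Pmch* had 3 UMIs and fell by 5.31 (SE 0.48, adjusted p = 9.69e-10, edgeR). *Hcrt* and *Agrp* had none and were at least 7.89-fold and 8.11-fold lower, with 3 UMIs over all Crh+ neurons as the floor (adjusted p = 0.000248 and 0.00106, edgeR). *Cartpt*, *Pnoc* and *Tac1* also fell, by 2.46, 1.41 and 1.28 (SE 0.63, 0.33 and 0.28), and lost their calls in 7 of 13, 6 of 16 and 5 of 16 alternatives.

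The peptide genes that were higher varied between embryos. *Nts*, neurotensin, was at 9.80, 0, 688, 185, 1604 and 264 CPM in Crh+ neurons of control embryos 1 to 6 and at 65.6 to 111 in the others (1.96, SE 0.36, adjusted p = 0.000859, edgeR). It was higher in 4 of 6 embryos, lay in 19 cells, and lost its call without embryo 3 or 5 and in DESeq2. *Nts* was also a leading gene of the *Barhl1*-led cluster, most of whose neurons had no *Crh* UMI. *Grp*, gastrin-releasing peptide, was higher in 5 of 6 embryos, at 56.8 ± 38.7 against 17.2 ± 4.60 CPM (1.82, SE 0.36, adjusted p = 0.00233, edgeR). *Npff* rose by 2.97 (SE 0.59, adjusted p = 0.00231, edgeR) from 34 UMIs in 3 embryos. *Gal*, a leading gene of the cluster with most Crh+ neurons, was found in 35 of 90 cells, but its level was 108 ± 66.7 against 74.4 ± 9.50 CPM (0.59, SE 0.24, adjusted p = 0.444, edgeR).

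Of 34 listed transcription factors of hypothalamic territories, 8 were lower, 3 higher and 23 not called. *Six3*, *Onecut2* and *Meis2* fell by 2.16 (SE 0.30), 2.26 (SE 0.30) and 2.16 (SE 0.35) in all 6 embryos, with edgeR adjusted p values of 8.15e-06 for *Six3*, 6.72e-06 for *Onecut2* and 0.000171 for *Meis2*. *Fezf1*, *Foxb1*, *Lhx9*, *Neurod6* and *Nkx2-1* fell by 2.71, 2.68, 4.77, 4.70 and 1.36. Over the lists, 2 factors were higher and 6 lower of 19 of the glutamatergic territories, and 1 higher and 2 lower of 15 of the GABAergic territories. The 1 higher of the GABAergic territories was *Nkx2-2*, at 47.0 ± 23.9 against 16.3 ± 3.28 CPM (1.51, SE 0.37, adjusted p = 0.023, edgeR), which lost its call in 8 of 16 alternatives, among them without control embryo 1, 2, 5 or 6 (adjusted p up to 0.226, edgeR).

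Of 17 genes of dense-core vesicles and peptide processing, *Resp18* alone was higher (0.73, SE 0.13, adjusted p = 0.000392, edgeR; 890 ± 432 against 535 ± 56.0 CPM, higher in 4 of 6 embryos). None of 14 ion channel genes, 9 PRC2 genes, 3 glutamatergic and 4 GABAergic genes passed in edgeR. The immediate early genes *Fos* and *Fosb* fell by 0.99 (SE 0.21, adjusted p = 0.00468, edgeR) and by 4.62 (SE 0.80, adjusted p = 0.000392, edgeR), 2 of 8 tested. Markers of other cell classes were scarce, since 1 of the 90 cells had 3 or more of the 5 microglial markers, 1 had 3 or more of the 5 astrocyte markers, and no endothelial or oligodendrocyte precursor marker had a UMI. The summed astrocyte markers were at 47.8 to 152 CPM by embryo in Crh+ neurons and 146 to 246 in the others. Leaving out all neurons with 3 or more markers of another class, Crh+ and other, 85 genes were called, 81 of them in common with the 101.

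Vasopressin was carried by a few Crh+ neurons at very high levels. In control, *Avp* was at 0, 39.1, 348, 21.7, 14.9 and 1260 CPM in Crh+ neurons of embryos 1 to 6, and at 188, 1332, 922, 496, 288 and 651 CPM in the other neurons. It was lower in 5 of 6 embryos, with embryo 6 the exception (-1.38, SE 0.36, adjusted p = 0.0434, edgeR), and 9 of 16 alternatives lost the call. *Avp* was found in 13 of the 90 cells, and 4 of them, with 197, 82, 68 and 44 UMIs, held 77.3% of the 506 UMIs. The share of cells with an *Avp* UMI was 14.4% in Crh+ and 5.39% in other neurons, and 9.20% and 2.62% after thinning, which goes against the CPM, so that no order is read from it.

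In Eed-cKO, the Crh+ neurons of embryos 1, 4, 5, 6, 7, 8 and 9 were at 43.4, 2255, 194, 36.2, 5628, 0 and 6792 CPM of *Avp*, compared with 229, 471, 271, 182, 55.7, 1.6 and 23.5 CPM in their other neurons. Embryos 4, 7 and 9 were higher and the other 4 lower. *Avp* was found in 8 of the 31 cells, and 3 cells with 263, 179 and 86 UMIs, from embryos 9, 7 and 4, held nearly all of the 557 UMIs. The cell with 263 was among the top Scrublet scores, and those with 179 and 86 were not. The rise was 2.98 (SE 0.67, adjusted p = 0.0103, edgeR), and it was lost without embryo 4, 7 or 9, in DESeq2, without the top Scrublet scores and when 4 neuronal genes were required.

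*Oxt* was nearly all in 1 cell. A control Crh+ neuron of embryo 6 held 473 of the 479 *Oxt* UMIs, and the other 3 cells with a UMI had 4, 1 and 1. The paired difference in control was 0.92 (SE 0.65, adjusted p = 0.798, edgeR), and without embryo 6 it was -3.18 (adjusted p = 0.0165, edgeR). In Eed-cKO, *Oxt* had 8 UMIs, all in 1 cell.

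**Figure D5:**
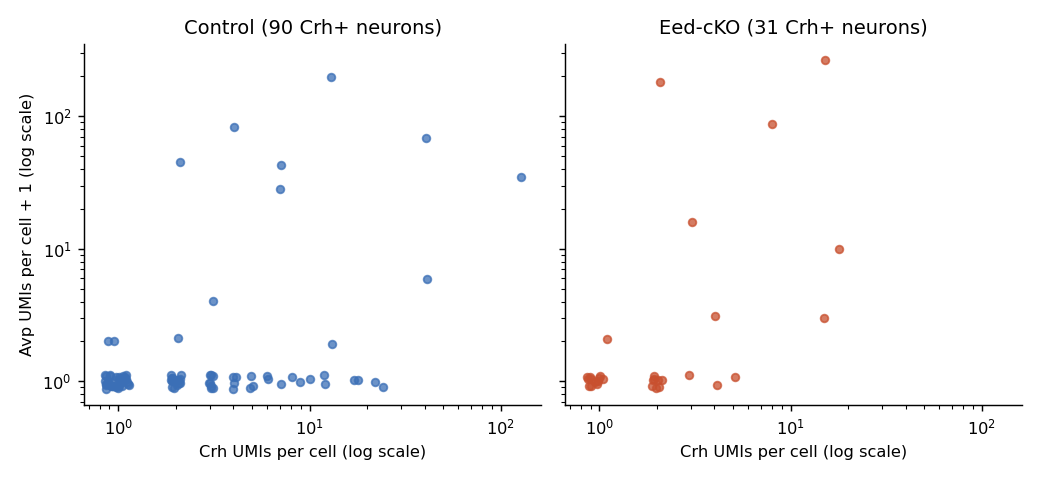
*Crh* UMIs (log scale, x axis) and *Avp* UMIs plus 1 (log scale, y axis) of each Crh+ neuron in control (left) and Eed-cKO (right), with points moved slightly so that they do not hide each other. Most cells have no *Avp* UMI and lie at 1 on the y axis, and the cells with most *Avp* reach 197 UMIs in control and 263 in Eed-cKO.

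The same comparison within Eed-cKO used the 7 embryos that held 2 to 7 Crh+ neurons, since no embryo had 10. Of 5786 genes tested with the embryo as a block, 68 passed (1.18%), 24 higher (0.415%) and 44 lower (0.76%) in Crh+ neurons. Those higher included 4 of 14 genes of peptide secretion and those lower included *Gad1* and 7 listed transcription factors, 4 of GABAergic and 3 of glutamatergic territories. Control and Eed-cKO values below come from separate fits and are given side by side without a test of their difference. The number of calls depended on single embryos, with 28 without embryo 4 or embryo 9, 29 without embryo 7 and 35 without embryo 5.

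Of 14 dense-core vesicle and peptide-processing genes, 4 were higher in Eed-cKO Crh+ neurons, with a median of 0.48 over the list and -0.05 over all genes. *Vgf*, a precursor of secreted neuropeptides, was at 43.4, 603, 229, 217, 314, 199 and 594 CPM in Crh+ neurons and at 68.9 to 115 in the others (1.94, SE 0.28, adjusted p = 2.43e-05, edgeR). It was higher in 6 of 7 embryos, with embryo 1, which had 1 UMI, the exception, and it kept its call in all 16 alternatives. *Ptprn*, *Scg2* and *Resp18*, all of dense-core vesicles, rose by 1.28 (SE 0.26), 1.13 (SE 0.26) and 1.01 (SE 0.17), with edgeR adjusted p values of 0.00438 for *Ptprn*, 0.0112 for *Scg2* and 0.000534 for *Resp18*. *Scg2* lost its call in 8 of 17 alternatives and *Ptprn* in 4 of 16. In control the call was made for *Resp18* only.

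Among the neuropeptide genes, 3 were higher and 3 lower of 14 tested. *Gal* was higher in 5 of 7 embryos, at 244 ± 221 against 71.7 ± 15.7 CPM (1.81, SE 0.35, adjusted p = 0.00212, edgeR), and *Grp* rose by 3.16 (SE 0.79, adjusted p = 0.0247, edgeR), with 22 of 29 UMIs from embryo 4. *Sst*, *Pnoc* and *Cck* fell by 1.84, 2.54 and 2.10 (SE 0.36, 0.49 and 0.45). *Arhgap36*, chosen after its values were seen, rose by 3.25 (SE 0.48, adjusted p = 2.8e-05, edgeR), with 36 of 63 UMIs from embryo 4.

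Of 4 GABAergic genes tested, 1 passed. *Gad1*, the GABA-synthesising enzyme, was at 0 to 373 CPM in Crh+ neurons (median 112) and at 365 to 508 in the others, lower in 7 of 7 embryos (-1.54, SE 0.28, adjusted p = 0.000893, edgeR). All 4 factors of the GABAergic list that could be tested fell, *Dlx1* by 2.47 (SE 0.56), *Isl1* by 1.71 (SE 0.40), *Meis2* by 2.53 (SE 0.47) and *Six3* by 1.67 (SE 0.38), each in 7 of 7 embryos. Over all genes tested, 0.76% were called lower. *Dlx1*, *Isl1* and *Six3* lost their calls in 4, 5 and 4 of 15 alternatives, and *Meis2* kept its call in all 15. Of 10 factors of glutamatergic territories, 3 fell and none rose, *Foxb1* by 3.83 (SE 0.66), *Zic1* by 1.58 (SE 0.31) and *Nkx2-1* by 1.47 (SE 0.37), also in 7 of 7 embryos, and *Nkx2-1* lost its call in 8 of 15 alternatives. Genes that moved the same way in all 7 embryos made up 7.9% of those tested. *Slc17a6* and *Slc32a1* were at 0.51 (SE 0.19, adjusted p = 0.292, edgeR) and -0.89 (SE 0.41, adjusted p = 0.488, edgeR).

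Outside these lists, *Cited1* fell by 2.36 (SE 0.50) and the antisense transcript *Lhx1os* by 2.55 (SE 0.51). *Cntnap2*, a neuronal adhesion gene, and *B4galt5* rose by 1.04 (SE 0.23) and 1.08 (SE 0.28) in all 7 embryos, but *B4galt5* lost its call in 10 of 15 alternatives, among them whenever 1 embryo was left out (adjusted p up to 0.171, edgeR). *Nr3c1* was at 77.3 ± 80.2 against 24.5 ± 4.61 CPM, higher in 6 of 7 embryos but not past the threshold (1.80, SE 0.49, adjusted p = 0.0558, edgeR), and *Sim1* was at 0.68 (SE 0.42, adjusted p = 0.669, edgeR). *Ttr*, a transcript of the choroid plexus that is common as free RNA, was lower at 1 UMI (-4.87, SE 0.91, adjusted p = 0.00151, edgeR).

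Hox genes, which are silent in the normal forebrain, were detected in Crh+ neurons of Eed-cKO but at a lower level than in the other neurons of the same embryos. Summed over 34 Hox genes, Crh+ neurons of embryos 1, 4, 5, 6, 7, 8 and 9 were at 0, 363, 193, 54.5, 0, 28.2 and 56.0 CPM, and the other neurons at 390, 468, 563, 428, 494, 587.8 and 586. All 7 embryos were lower, with means of 99.3 ± 134 and 502.3 ± 79.1, a 5.06-fold difference (exact sign-flip test over embryos, p = 0.015625, the smallest that 7 embryos can give). A Hox UMI was found in 10 of 31 Crh+ neurons and in 2451 of 5193 others. In control it was 0 of 90 cells, which allows a share of up to 4.09% (Wilson 95%), and 6 of 5808. The test was added after the data were seen. Within Eed-cKO, 29.2% of neurons lay in a cluster led by *Hoxc10*, *Tfap2b* and *Hoxc13*, which held 1 of the 31 Crh+ neurons. The other neurons are thus a mixture, and Crh+ neurons were not compared with like neurons. Of the 33 Hox UMIs of Crh+ neurons, the 16 of embryo 4 were in 1 cell among the top Scrublet scores.

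The genotypes were then compared within the Crh+ neurons themselves, in 6 control and 7 Eed-cKO embryos, to see which genes differed in those that remained. Of 9706 genes tested, 73 passed (0.752%). In Eed-cKO, 36 were higher (0.371%) and 37 lower (0.381%), and this split depended on scaling and tool. With library sizes in place of TMM it was 42 higher and 17 lower, and with DESeq2 1 higher and 94 lower, with 20 genes in common with the 73. The median log2 difference of all genes was -0.15 with TMM, so small falls are near that shift.

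The falls in which no embryo overlapped between the genotypes included *Rps13*, a ribosomal protein gene, at 490 to 720 CPM in control and 87.4 to 287 in Eed-cKO (-1.40, SE 0.24, adjusted p = 8.67e-05, edgeR). *Rps15a* fell by 1.16 (SE 0.24, adjusted p = 0.00188, edgeR) and the iron-sulphur assembly gene *Ciapin1* by 1.69 (SE 0.39, adjusted p = 0.00854, edgeR). Over all neurons *Rps13* and *Rps15a* fell by 1.17 and 0.90. The adhesion gene *Cadm1* fell by 0.90 (SE 0.18, adjusted p = 0.00125, edgeR). Genes without overlap made up 0.505% of those tested.

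*Phactr2* had no UMI in the Eed-cKO Crh+ neurons and 40 in control, at least 4.19-fold lower (adjusted p = 0.00904, edgeR). *Rorb*, an orphan nuclear receptor, had 1 UMI against 48 (-3.73, SE 0.89, adjusted p = 0.0107, edgeR), and *Brinp3* and *Fam103a1* had 2 and 1 UMIs against 58 and 56. *Dlx1* had 5 UMIs against 104 (-3.00, SE 0.61, adjusted p = 0.00128, edgeR). *Trnp1*, a chromatin-associated regulator of progenitors, was higher, at 51.7 to 210 CPM against 12.4 to 44.1 (1.78, SE 0.47, adjusted p = 0.04, edgeR), but lost its call in 12 of 23 alternatives.

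*Vgf* was also higher in Crh+ neurons of Eed-cKO than of control, at 317 ± 217 against 114 ± 67.3 CPM (1.42, SE 0.31, adjusted p = 0.00292, edgeR). This was 1 of 17 genes of the secretory list, and the call was lost in 5 of 24 alternatives, among them without embryo 4 (1.16, adjusted p = 0.0508, edgeR). *Avp* was at 2091 ± 2843 against 317 ± 565 CPM (2.48, SE 0.43, adjusted p = 8.78e-05, edgeR), and lost its call with DESeq2, with limma and with sex as a covariate. *Oxt* was at -3.39 (SE 0.70, adjusted p = 0.00166, edgeR) with the cell of control embryo 6 described above counted, and without that embryo it was at 1.73 (adjusted p = 0.687, edgeR).

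Of 17 neuropeptide genes tested, 5 were higher (*Avp*, *Cartpt*, *Pomc*, *Sst* and *Tac1*) and *Oxt* was lower. Several of the genes that were higher rested on few cells. *Tac1* rose by 2.81 (SE 0.45, adjusted p = 1.72e-05, edgeR), with 77 of 105 UMIs from embryo 4, and without it the value was 1.12 (adjusted p = 0.42, edgeR). *Pomc* had 23 of 25 UMIs, *Slc1a3* 24 of 30 and *Sst* 13 of 23 in 1 embryo each. *Tfap2b* and *Vax2*, the 2 that could be tested of 5 further developmental factors on a list, had 10 and 7 UMIs, 7 and 6 of them in 1 embryo each, and none in control, at least 10.6-fold and 7.42-fold higher, and *Vax2* lost its call in 12 of 21 alternatives. *Hoxc10* had 8 UMIs, 6 of them in 1 embryo, and none in control, at least 8.48-fold higher. *Tfap2b*, *Vax2* and *Hoxc10* passed the gene filter only through the Eed-cKO embryos, where they were high. Their calls and bounds are therefore a description only. *Cartpt* rose by 3.62 (SE 0.76), *Onecut2* by 1.92 (SE 0.47) and the collagen gene *Col1a2* by 3.73 (SE 0.87), with edgeR adjusted p values of 0.00181 for *Cartpt*, 0.016 for *Onecut2* and 0.00904 for *Col1a2*. *Onecut2* lost its call in 9 of 24 alternatives, *Hoxc10* in 6 of 20 and *Col1a2* in 5 of 22, and without Eed-cKO embryo 9 *Cartpt* was at 2.32 (adjusted p = 0.408, edgeR). Eed-cKO Crh+ neurons also held more cells with markers of another class, 2 of 31 with at least 3 of the 5 leptomeningeal markers, 2 for the astrocyte lineage, 1 for ependymal cells and 1 for cycling cells. Their summed leptomeningeal markers were at 0 to 368 CPM by embryo (0 to 29.9 in control) and their astrocyte markers at 0 to 581 (47.8 to 152 in control). Without cells of 3 such markers 63 genes were called, 18 higher and 45 lower.

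Of 9 immediate early genes tested, *Fos*, *Fosb* and *Btg2* were higher in Eed-cKO Crh+ neurons, by 1.88 (SE 0.34), 4.90 (SE 0.83) and 2.05 (SE 0.49), with edgeR adjusted p values of 0.000158, 6.16e-05 and 0.0133. All 10 immediate early genes were higher over all neurons of Eed-cKO, where 8.07% of genes were higher, so these values move with those of the other neurons. These genes respond to tissue dissociation as well as to activity, and its part in the result was not tested.

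Whether the genotype effect in Crh+ neurons differed from that in other neurons of the same embryos was tested as an interaction. Of 9896 genes, 16 passed (0.162%), 8 in each direction (0.0808% each), and 760 had an unadjusted p under 0.05 in edgeR. With library sizes in place of TMM 10 were positive and 1 negative, and the median of all genes was -0.18 with TMM. The count was 7 without control embryo 6, 10 without Eed-cKO embryo 4 or 9, and 28 without Eed-cKO embryo 8. *Avp* had the strongest call, 4.65 on the log2 scale (SE 0.62, adjusted p = 1.09e-07, edgeR), since it fell over all neurons and was at a higher level in the Crh+ neurons of Eed-cKO. The size ranged from 3.09 to 6.00 over 23 alternatives, of which limma with TREAT lost the call (4.27, adjusted p = 0.451), and it rested on the few cells described above.

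*Vgf* differed by 1.81 (SE 0.33, adjusted p = 0.000885, edgeR), as it fell by 0.36 over all neurons and was higher in Crh+ neurons. *Tac1*, *Sst*, *Th*, *Slc1a3*, *Fabp7* and *Igf2* also differed upwards, by 2.28, 3.95, 4.09, 4.02, 2.30 and 8.56. *Igf2* had no UMI in control Crh+ neurons, which makes its size no bound, and 29 of its 35 UMIs came from 1 Eed-cKO embryo. *Fabp7* and *Slc1a3* are genes of the astrocyte lineage, and they led a cluster that held 1 Eed-cKO Crh+ neuron. Without cells of 3 markers of another class *Fabp7* was at 0.20 (adjusted p = 0.957, edgeR), and without Eed-cKO embryo 6 *Slc1a3* was at 2.10 (adjusted p = 0.682, edgeR). *Fabp7* lost its call in 10 of 21 alternatives, *Igf2* in 10 of 21, *Slc1a3* in 8 of 20 and *Tac1* in 6 of 21. In the other direction were *Cd24a*, a surface protein gene of young neurons, at -1.17 (SE 0.19, adjusted p = 4.38e-05, edgeR), *Dcx*, the microtubule protein of migrating neurons, at -0.75 (SE 0.17, adjusted p = 0.032, edgeR) and *Sox11*, a factor of young neurons, at -0.76 (SE 0.17, adjusted p = 0.0227, edgeR). *Dcx* lost its call in 9 and *Sox11* in 10 of 23 alternatives.

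*Cd24a* was at 1151 ± 292 CPM in control Crh+ neurons and 516 ± 222 in Eed-cKO, and its call was lost with limma and after thinning. *Gpm6a*, *Nrep*, *Syt4*, *Nrxn3* and *Ciapin1* were at -0.72, -0.71, -0.89, -1.36 and -1.79. *Syt4*, one of the genes that rose in control Crh+ neurons, lost its call in 12 of 23 alternatives. *Nrep* lost its call in 15 of 23, *Nrxn3* in 15 of 22, *Ciapin1* in 8 of 22 and *Gpm6a* in 5 of 23.

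The pattern of *Crh* over the 15 embryos was set beside that of all other genes as a description, since the embryos share genotype and depth. Across all neurons the 5 genes most like it were *Npvf*, *Hcrt*, *Mtmr4*, *Pmch* and *Pdxk-ps*, with Pearson r of 0.915, 0.901, 0.896, 0.843 and 0.815 over 15 embryos. Without control embryo 6 these became 0.710, 0.0569, 0.345, 0.534 and -0.332. Of the 5, *Npvf* was then the highest, and *Avp* was at 0.475 with and 0.696 without that embryo.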

How the data were processed

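Single-cell libraries were made on the ddSEQ system. The authors deposited UMI counts for each gene in every cell, not normalized, after dropping shallow cells (the lowest kept had 601 UMIs). The submitters' processing notes name mm10, STAR 2.5.2b and SAMtools 1.3. A table of sample labels was not used. Here, counts of Crh+ and of other neurons were added up within each embryo. The quasi-likelihood test of edgeR 4.0.16 (R 4.3.3; TMM, Benjamini-Hochberg, threshold 0.05) was applied to genes with at least 10 UMIs expected in the Crh+ sums, with the embryo as a block where both sums come from the same animal. A gene absent on 1 side of a comparison passed this filter through the other side alone, so its call is a description. The planned minimum of 10 Crh+ neurons per embryo was met by every control but no Eed-cKO embryo. Fits with Eed-cKO therefore took embryos with at least 1. Shares were tested by exact permutation of embryos (scipy 1.17.1, Python 3.11.15). Clustering used scanpy 1.11.5 (2000 variable genes, 30 components, 15 neighbours, resolution 1). Alternatives were limma 3.58.1 with TREAT at 0.18, DESeq2 1.42.0, other scalings and filters, thinning, covariates and leaving out embryos. The edgeR steps were checked on simulated data. Named genes were list members past the threshold, up to 8 largest rises and falls that moved alike in every embryo or did not overlap, and *Avp*, *Oxt*, *Sim1*, *Slc17a6*, *Slc32a1*, *Nr3c1*, *Crhr1*, *Crhbp* and *Eed*. Members and lists were chosen with earlier results of these data known. Litters were read from sample names. Some listed genes, such as *Otp* and *Ucn*, were not analysed here.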

Additional observations from a re-analysis of the deposited data

Results flagged for a closer look

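Of 26 sets of embryo values, 8 had an embryo that stood apart from the others of its group. Many of these values rest on few UMIs or cells, and the sets share embryos. The number of sets was therefore not held against a chance rate. In control, embryo 6 was the highest in the share of Crh+ neurons (3.02%), in the *Crh* level over all neurons without TMM scaling (43.8 CPM), in the *Avp* level of its Crh+ neurons (1260 CPM) and in their *Oxt* level (1318 CPM). One control embryo had 9.09% of Crh+ neurons with UMIs of both transporters after thinning, with the others at 0. In Eed-cKO Crh+ neurons, single embryos stood apart in *Crhr1* (86.9 CPM, from 2 UMIs), *Nr3c1* (246 CPM, from 11 UMIs) and *Oxt* (348 CPM, from 8 UMIs).

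The genotype effect differed between Crh+ and other neurons for 16 genes by the interaction test in edgeR. The log2 differences were positive for *Avp* (4.65), *Vgf* (1.81), *Tac1* (2.28), *Sst* (3.95), *Th* (4.09), *Slc1a3* (4.02), *Fabp7* (2.30) and *Igf2* (8.56). They were negative for *Cd24a* (-1.17), *Sox11* (-0.76), *Dcx* (-0.75), *Nrxn3* (-1.36), *Syt4* (-0.89), *Nrep* (-0.71), *Gpm6a* (-0.72) and *Ciapin1* (-1.79). Several of these calls depended on the processing, most of all *Nrxn3* and *Nrep*, which lost theirs in 15 of 22 and 15 of 23 alternatives.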

How the results depend on the processing

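The lower share of Crh+ neurons in Eed-cKO kept its direction and its call under each other scaling, filter, thinning or replicate unit tried, from -1.16 to -0.742 points when 1 embryo was left out. Within the *Ebf3*-led cluster, an alternative added after seeing the data, it was 1.93 points higher (exact permutation p = 0.617). The *Crh* level kept its direction but not its call with limma and TREAT (-2.04, adjusted p = 0.0799), and ranged from -2.23 to -1.16 when 1 embryo was left out.

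The 101 genes of control Crh+ neurons became 191 without a gene filter, 201 with the gene filter of the study's methods, and 41 to 107 when 1 embryo was left out, with 41 without embryo 6 and 66 without embryo 3. The 68 genes in Eed-cKO became 160 and 233 with those filters, 31 with DESeq2, 40 without the top Scrublet scores, 4 after thinning to 2000 UMIs, where 354 genes were tested, and 28 to 57 when 1 embryo was left out. The 73 genes between genotypes became 37 with limma and TREAT, 47 when 2 *Crh* UMIs were required, 47 without the top Scrublet scores, 14 after thinning, where 2727 genes were tested, and 50 to 106 when 1 embryo was left out. The 16 interaction genes became 7 at 2 *Crh* UMIs, 10 at 4 neuronal genes, 5 without the top Scrublet scores, 6 after thinning, and 7 to 28 when 1 embryo was left out. *Oxt* ranged from -3.18 to 1.65 in control and from -7.82 to 1.73 between genotypes when 1 embryo was left out, and it turned without control embryo 6, to -3.18 and to 1.73. Beyond fewer genes tested, the cause of these moves was not tested.

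The fits of Eed-cKO embryos with at least 10 Crh+ neurons gave no value, since none had them, and thinning left too few control embryos with 10. No paired analysis between genotypes was possible because no litter holds both genotypes and embryo numbers share nothing. The 31 Eed-cKO Crh+ neurons limit every Eed-cKO value.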
